A study of Mus musculus with 2 samples.

Results

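The insulin-like growth factors, their receptors and the imprinted genes that control them were described in fibroblasts with and without normal levels of the maintenance DNA methyltransferase. The 10 genes were H19, Igf2, Igf2r, Airn, Slc22a3, Igf1, Igf1r, Grb10, Irs1 and Irs2, out of 20906 entries that carried a gene symbol. They were taken by symbol, and each had an entry of its own. Strand-specific mRNA-seq of mouse embryonic fibroblasts (MEFs) gave 1 library from Dnmt1+/+ and 1 from Dnmt1-/- cells, and levels are in RPKM, a read density that is set relative to transcript length and to the number of mapped reads. The study compared these lines to ask how loss of DNA methylation alters Polycomb marks and gene expression. The cells called Dnmt1-/- carry the hypomorphic n allele of Dnmt1 on both chromosomes, so they are not full nulls. Both lines are null for trp53, which encodes p53, so the control line is trp53-/- with intact Dnmt1. Both were cell lines received as a gift, and the strain is labelled unknown. With 1 library per genotype there is no replicate error, and differences between genotypes cannot be told apart from differences between the lines, cultures and libraries. No test was possible. The study lists the mapped reads of each library, but the table gives no read counts per gene, so no counting interval is given.

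Genomic imprinting leaves a gene active on the chromosome from one parent alone, as directed by DNA methylation laid down in the egg or sperm. At the Igf2 and H19 domain, the unmethylated maternal control region binds the insulator protein CTCF, which keeps shared enhancers on H19, while the methylated paternal region lets them reach Igf2. At the Igf2r domain, the long antisense RNA Airn is transcribed from the unmethylated paternal chromosome and silences Igf2r, and in placenta also Slc22a3. Igf2 and Igf1 are secreted growth factors that signal through the tyrosine kinase Igf1r and the substrate proteins Irs1 and Irs2, whereas Igf2r takes Igf2 to the lysosome and Grb10 is an adaptor that dampens receptor signalling. Igf2 is therefore known as a growth promoting imprinted gene, and H19, Igf2r and Grb10 as growth limiting ones.

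The genes lie on 6 chromosomes in mm9 (NCBIM37), the build of the files, as annotated by GENCODE. H19 (chr7:149761434-149764048, minus strand) and Igf2 (chr7:149836673-149852721, minus strand) start 88.7 kb apart. Igf2r (chr17:12875272-12962530, minus strand) is overlapped by Airn (chr17:12934177-13052988, plus strand), which starts inside intron 2 of Igf2r, 28.4 kb from the Igf2r start. Airn spans the first 2 of the 48 exons of the longest Igf2r model, and 0 of its exonic bases overlap an Igf2r exon. Slc22a3 (chr17:12612838-12700570, minus strand) encodes an organic cation transporter and starts 262.0 kb from Igf2r. Grb10 is at chr11:11830511-11938686 (minus strand). Igf1 is at chr10:87321010-87399792 (plus strand), Igf1r at chr7:75097713-75371484 (plus strand), Irs1 at chr1:82229676-82287991 (minus strand) and Irs2 at chr8:10986980-11008458 (minus strand). Igf1r shares a chromosome with H19 but lies 74.7 Mb from it.

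The 4 promoters below belong to the 3 imprinted genes whose RNA was far lower in the Dnmt1-/- library and to Airn, whose RNA was not. Each line gives the 250 bases before a RefSeq start, 5′ to 3′ on the strand of the gene, from a table of build GRCm38.p6, with every CG dinucleotide, the target of Dnmt1, in capitals. By exact match to mm9 they lie at chr7:149844710-149844959 for Igf2, chr17:12962573-12962822 for Igf2r, chr11:11937424-11937673 for Grb10 and chr17:12933927-12934176 for Airn. For Igf2 and Grb10, the start with the most CG among the 4 and 2 starts in the table is shown.
Igf2: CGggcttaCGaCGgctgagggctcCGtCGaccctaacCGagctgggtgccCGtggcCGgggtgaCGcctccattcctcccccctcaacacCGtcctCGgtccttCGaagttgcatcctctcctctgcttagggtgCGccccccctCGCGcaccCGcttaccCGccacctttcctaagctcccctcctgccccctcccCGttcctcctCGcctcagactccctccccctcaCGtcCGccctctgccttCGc
Igf2r: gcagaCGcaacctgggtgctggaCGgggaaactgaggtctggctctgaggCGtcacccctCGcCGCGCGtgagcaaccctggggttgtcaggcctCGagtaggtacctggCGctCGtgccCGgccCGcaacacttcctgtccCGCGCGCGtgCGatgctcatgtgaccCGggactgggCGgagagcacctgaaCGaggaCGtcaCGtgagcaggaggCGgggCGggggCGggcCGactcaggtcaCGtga
Grb10: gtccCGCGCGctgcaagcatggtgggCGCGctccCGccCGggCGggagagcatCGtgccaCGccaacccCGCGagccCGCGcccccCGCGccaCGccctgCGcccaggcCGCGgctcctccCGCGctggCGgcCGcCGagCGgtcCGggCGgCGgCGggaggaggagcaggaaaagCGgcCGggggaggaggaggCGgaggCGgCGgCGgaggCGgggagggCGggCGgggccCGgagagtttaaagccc
Airn: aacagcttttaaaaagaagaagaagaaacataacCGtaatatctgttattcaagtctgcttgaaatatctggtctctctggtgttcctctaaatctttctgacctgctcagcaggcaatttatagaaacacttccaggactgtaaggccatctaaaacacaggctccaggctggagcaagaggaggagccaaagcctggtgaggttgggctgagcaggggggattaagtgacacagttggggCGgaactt

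The Grb10 promoter held 40 CG dinucleotides, a number that 1.31% of 32851 RefSeq promoters of the same length reached or passed. The Igf2r promoter held 27 (8.56% of promoters had as many or more) and the Igf2 promoter 22 (14.8%). The Airn window held 2, and 81.2% of promoters had as many or more. Each window ended at the base before the start, so CG past the start was not counted for any gene. The Airn count therefore does not tell how rich in CG the region on both sides of its start is. The motif searched was CG, which reads the same on both strands, and 92.1% of promoters held at least 1, with a median of 6. The other 3 Igf2 starts had 6, 10 and 1 CG, and the other Grb10 start had 8. Among the genes outside these domains, the promoters of Igf1r, Irs2 and Irs1 held 42, 34 and 28 CG and that of Igf1 held 5, while the Slc22a3 promoter held 5. Of these promoters that of Igf1r had the most CG, and Igf1r RNA differed by less than 2-fold between the libraries. Whether the CG number of a promoter goes with the change in RNA was not tested.

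H19 and Igf2 each host a microRNA, and their mature sequences follow with the seed (bases 2 to 8) in capitals, to show which small RNAs lie within the host genes. The mir-675 hairpin (chr7:149762969-149763052, minus strand) lies within an H19 exon, 996 bases from the H19 start. The mir-483 hairpin (chr7:149840829-149840901, minus strand) lies within Igf2 but in no annotated exon.
miR-675-5p: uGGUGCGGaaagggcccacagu
miR-675-3p: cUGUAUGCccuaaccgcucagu
miR-483-5p: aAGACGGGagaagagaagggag
miR-483-3p: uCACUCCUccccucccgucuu

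No seed was shared among the 4. Mature microRNAs were not measured by these mRNA libraries. The entry for Mir483 was listed at 0 RPKM in both libraries, so the only reading on either locus is that of the host RNA.

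Dnmt1, the gene altered in this design, was at 65.2 RPKM in the Dnmt1+/+ library and 14.5 RPKM in the Dnmt1-/- library, 4.49-fold lower, in the direction of the labels. Of 12 genes used by all cells, 12 were within 2-fold. The fibroblast markers summed to 6291 RPKM in Dnmt1+/+ and 4980 RPKM in Dnmt1-/-, with 10 and 9 of 12 at 1 RPKM or more. Of the 10 that passed the filter described below, 5 were past 2-fold (50%, against 19.4% of all genes). Thy1 (4.84 and 0.129 RPKM), Col1a2 (1241 and 475.9 RPKM) and Fn1 (663.7 and 235.5 RPKM) were lower in Dnmt1-/-, and Pdgfra (6.95 and 18.7 RPKM) and S100a4 (289.6 and 1262 RPKM) were higher. The marker sums of other cell types were lower than 1 RPKM in Dnmt1+/+, and in Dnmt1-/- reached 2.19 for epithelium, 3.63 for leucocytes, 0.642 for endothelium, 3.36 for skeletal muscle, 0.346 for hepatocytes and 16.6 for trophoblast. Most of these sums came from Krt14 with Krt17 in 1 entry (0.0349 and 1.46 RPKM), Cd68 (0.596 and 3.63 RPKM), Myf5 (0.106 and 3.28 RPKM) and Prl2c2 (0.679 and 16.6 RPKM), all higher in Dnmt1-/-. Ptprc, Gcm1, Tpbpa and Elf5, defining markers of leucocytes and trophoblast, were at 0 in both. The lines also differed beyond Dnmt1. Xist was at 0.00648 and 37.0 RPKM, Ddx3y at 13.9 and 0 RPKM and Eif2s3y at 18.8 and 0 RPKM in Dnmt1+/+ and Dnmt1-/-. The part of these differences in the results below was not tested.

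Of the growth promoting and growth limiting imprinted genes among the 10, Igf2, Igf2r and Grb10 were all at 0.450 RPKM or less in the Dnmt1-/- library. H19 was listed above 0 in that library alone. Some other imprinted genes, described further on, showed 1 or the other of these traits. Changes are given as the difference of log2(RPKM + 0.1), Dnmt1-/- minus Dnmt1+/+, a scale that understates the change of low genes, while fold values are ratios of RPKM. Of the 10 genes, 9 passed the filter, which asked for a status of OK in the table and at least 1 RPKM in one library or the other. Higher by more than 2-fold in Dnmt1-/- were H19 and Igf1, against a background of 8.47% of the 11244 genes that passed, and lower by more than 2-fold were Igf2, Igf2r, Grb10 and Irs2, against 10.9%. Thus 6 of 9 were past 2-fold in either direction and 3 (Airn, Igf1r and Irs1) were not, against 19.4% past 2-fold among all genes. The median change of all genes kept was -0.14. A gene could pass the filter through the library in which it was high, so these counts are a description of the 9 genes. In bulk RNA, fewer expressing cells and less RNA per cell cannot be told apart.

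**Figure D1:**
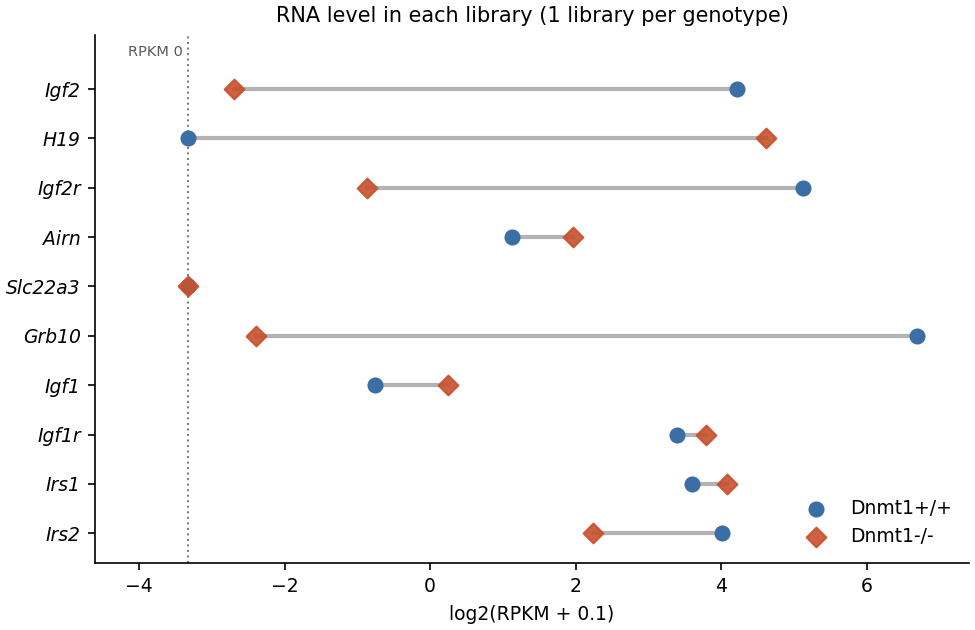
RNA level of the 10 genes in each library, as log2(RPKM + 0.1), with circles for Dnmt1+/+, diamonds for Dnmt1-/- and a bar joining the 2 values of a gene. The dotted line marks an RPKM of 0, where H19 sits in Dnmt1+/+ and Slc22a3 in both libraries, and the longest bars are those of Grb10, H19, Igf2 and Igf2r.

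Igf2, the fetal growth factor, was at 18.5 RPKM in Dnmt1+/+ and 0.0544 RPKM in Dnmt1-/-. The difference was 341-fold (log2 change -6.92), the 10th lowest change among all genes kept. In Dnmt1+/+ its level was above that of 64.4% of genes, and in Dnmt1-/- above that of 0.845%. Igf2 was thus an ordinary expressed gene in one library and at the bottom of the range in the other.

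H19, the untranslated RNA that shares enhancers with Igf2, showed the opposite pattern. It was listed at 0 RPKM in Dnmt1+/+ and at 24.4 RPKM in Dnmt1-/-, where it was above 72.9% of genes. No fold can be given against a value of 0 with no counts. The RNA read from the domain was therefore from Igf2 in one library and from H19 in the other, at 18.5 and 24.4 RPKM.

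Igf2r, the receptor that clears Igf2 and carries lysosomal enzymes tagged with mannose 6-phosphate, was at 34.6 RPKM in Dnmt1+/+ and 0.450 RPKM in Dnmt1-/-. This was 76.9-fold lower (log2 change -5.98), the 29th lowest change. Its level was above 80.1% of genes in Dnmt1+/+ and above 2.53% in Dnmt1-/-.

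Airn, the antisense RNA that starts within Igf2r, was at 2.09 RPKM in Dnmt1+/+ and 3.81 RPKM in Dnmt1-/-. The difference of 1.83-fold (log2 change 0.84) was under the 2-fold limit, and it passed a 1.5-fold limit that 14.1% of genes passed upwards, 23.7% downwards and 37.8% in either direction. After subtraction of the median change Airn was at 0.98, still under the limit, with 9.71% of genes then past 2-fold higher, 8.58% lower and 18.3% in either direction. Igf2r had 16.6 times the RPKM of Airn in Dnmt1+/+, and Airn had 8.46 times the RPKM of Igf2r in Dnmt1-/-. The order of this sense and antisense pair in RPKM was thus inverted. RPKM depends on the transcript length assumed for each gene, so these ratios between genes need not be ratios of molecules. Most of that inversion came from Igf2r, since Airn differed by less than 2-fold. The deposited table places Igf2r, Airn and Mas1 in a single locus. Although the libraries kept strand, whether strand was used to assign reads is not stated in the sources used here, so the values of Igf2r and Airn are uncertain where they overlap.

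Slc22a3, which transports organic cations and is imprinted in placenta, was listed at 0 RPKM in both libraries. No RNA was read from it in either genotype, and its direction could not be assessed. Slc22a2, which lies between Slc22a3 and Igf2r, was listed at 0 in both. Slc22a5, the carnitine transporter, was at 2.39 and 3.51 RPKM, within 2-fold, and Slc22a4 was at 0.832 and 3.96 RPKM, higher in Dnmt1-/- (log2 change 2.12). These 2 genes were those of the 5 transporters that passed the filter.

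Grb10, the adaptor that inhibits signalling from the insulin and Igf1 receptors, was among the genes with the widest gaps, and had the lowest change of the 10. It was at 102.7 RPKM in Dnmt1+/+ and 0.0907 RPKM in Dnmt1-/-. The difference of 1132-fold (log2 change -9.07) was the 2nd lowest change among all genes kept. Grb10 had been more abundant than 94.7% of genes in Dnmt1+/+, and in Dnmt1-/- it was above 1.09%. It thus stood among the more abundant RNAs in one library and among the least abundant in the other.

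**Figure D2:**
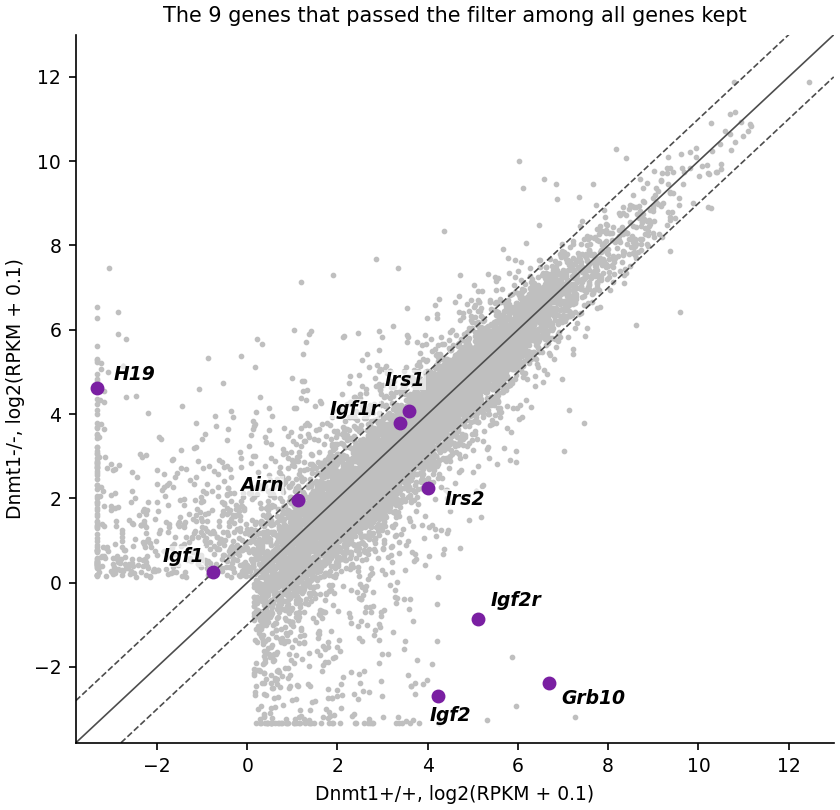
Level of every gene kept in Dnmt1+/+ (x axis) and Dnmt1-/- (y axis), both as log2(RPKM + 0.1), with grey points for the 11244 genes and purple points for the 9 named genes that passed the filter. The solid line marks equal levels and the dashed lines 2-fold, and Igf2, Igf2r and Grb10 lie far below the cloud while H19 lies on its left edge at an RPKM of 0 in Dnmt1+/+.

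The non-imprinted genes of the pathway differed less than H19, Igf2, Igf2r and Grb10. Igf1, the other growth factor, was at 0.490 RPKM in Dnmt1+/+ and 1.09 RPKM in Dnmt1-/-. This 2.22-fold difference (log2 change 1.01) was just past the limit, and with a pseudocount of 1 it was 0.48 and no longer past it. Igf1 was above 3.23% and 6.31% of genes, so it was a low RNA in both lines. The RPKM of Igf1 and Igf2 summed to 19.04 in Dnmt1+/+ and 1.14 in Dnmt1-/-, and Igf2 made up most of the first sum and Igf1 most of the second.

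Igf1r, the tyrosine kinase receptor for both growth factors, was at 10.4 RPKM in Dnmt1+/+ and 13.7 RPKM in Dnmt1-/-, 1.32-fold higher (log2 change 0.40). Its level was above 47.5% and 58.1% of genes. The signalling receptor therefore stayed within 2-fold while the clearing receptor Igf2r did not.

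Irs1, a docking protein phosphorylated by Igf1r and the insulin receptor, was at 11.98 RPKM in Dnmt1+/+ and 16.8 RPKM in Dnmt1-/-, 1.40-fold higher (log2 change 0.49). Irs2, its close relative, was at 16.0 RPKM in Dnmt1+/+ and 4.62 RPKM in Dnmt1-/-, 3.45-fold lower (log2 change -1.77). Irs2 was the higher of the pair in Dnmt1+/+ and Irs1 in Dnmt1-/-. Their summed RPKM was 27.9 in Dnmt1+/+ and 21.4 in Dnmt1-/-, so the sum differed less than Irs2 did. The change of Irs2 was the 453rd lowest among all genes kept, far smaller than those of Igf2, Igf2r and Grb10.

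The imprinted domains were next examined for how far along the chromosome the difference reached. Within 250 kb of the 6 imprinted genes lay 52 other entries, of which 27 passed the filter. The Dnmt1-/- library was above 2-fold for 6 of them and below it for another 6. Of the 14 that carried a gene symbol, 2 were higher and 2 lower, 28.6% in all against 19.4% of all genes. The 13 without a symbol had 4 higher and 4 lower, 61.5% in all. Across the table, 46.1% of the 8014 entries without a symbol that passed were past 2-fold (19.3% higher and 26.9% lower), and 30.5% of the 19258 entries with or without one (13% higher and 17.5% lower).

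Around Igf2 and H19, 4 neighbours with a symbol passed. Of these, 2 were more than 2-fold higher (50%, against 8.47% of all genes) and 0 lower (against 10.9%). Syt8, a member of the synaptotagmin family, was at 0.109 and 1.71 RPKM (log2 change 3.11), and Tnni2, a fast skeletal muscle troponin, at 0.7498 and 1.77 RPKM (1.14). Both were higher in Dnmt1-/-, yet both were low there. An entry without a symbol, at 0.629 and 10.7 RPKM (3.89), had the highest change of the neighbours that passed. Mrpl23, a mitochondrial ribosomal protein gene and the kept neighbour nearest to H19, was at 3.70 and 3.68 RPKM. Ctsd, the lysosomal protease cathepsin D, was at 183.2 and 222.5 RPKM, within 2-fold. Ins2, the insulin gene that adjoins Igf2, and Th were listed at 0 in both, and Igf2as, an antisense RNA within Igf2, was at 0.107 RPKM in Dnmt1+/+ and 0 in Dnmt1-/-, under the filter. Igf2as and Mir483 share the locus of Igf2 in the table, and their values are uncertain for the reason given for Airn.

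Around Igf2r, 8 neighbours with a symbol passed. Of these, 0 were more than 2-fold higher, against 8.47% of all genes, and 2 were lower (25%, against 10.9%). Acat3 was at 23.9 and 9.82 RPKM (log2 change -1.28) and Acat2, an acetyl-CoA acetyltransferase, at 57.0 and 26.0 RPKM (-1.13). These close paralogs can share reads and share a locus with Tcp1 in the table, so their values are uncertain. The other 6 were within 2-fold. Agpat4 was at 25.01 and 19.3 RPKM and Map3k4 at 16.6 and 9.80 RPKM. Tcp1, a chaperonin subunit, was at 359.2 and 374.7 RPKM and Mrpl18 at 36.8 and 54.3 RPKM. Wtap, a subunit of the RNA methyltransferase complex, was at 17.9 and 18.5 RPKM and Sod2, the mitochondrial superoxide dismutase, at 13.5 and 12.9 RPKM. No neighbour of Igf2r approached its change of -5.98, and Mas1, in the same locus, was at 0.0815 and 0.0142 RPKM, under the filter.

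Around Grb10, both neighbours with a symbol that passed were within 2-fold, while 19.4% of all genes were past it. Fignl1 was at 19.97 and 25.9 RPKM and Cobl, a regulator of actin, at 0.945 and 1.12 RPKM. Ddc, which encodes an aromatic amino acid decarboxylase and has an imprinted form in heart, was at 0.0879 and 0.908 RPKM, under the filter. A pair of short entries without a symbol, with their middles 155.7 and 156.0 kb from the Grb10 start, also passed. They were at 2.33 and 0 RPKM and at 10.07 and 2.12 RPKM, both lower in Dnmt1-/-. Of all entries without a symbol that passed, 26.9% were lower.

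**Figure D3:**
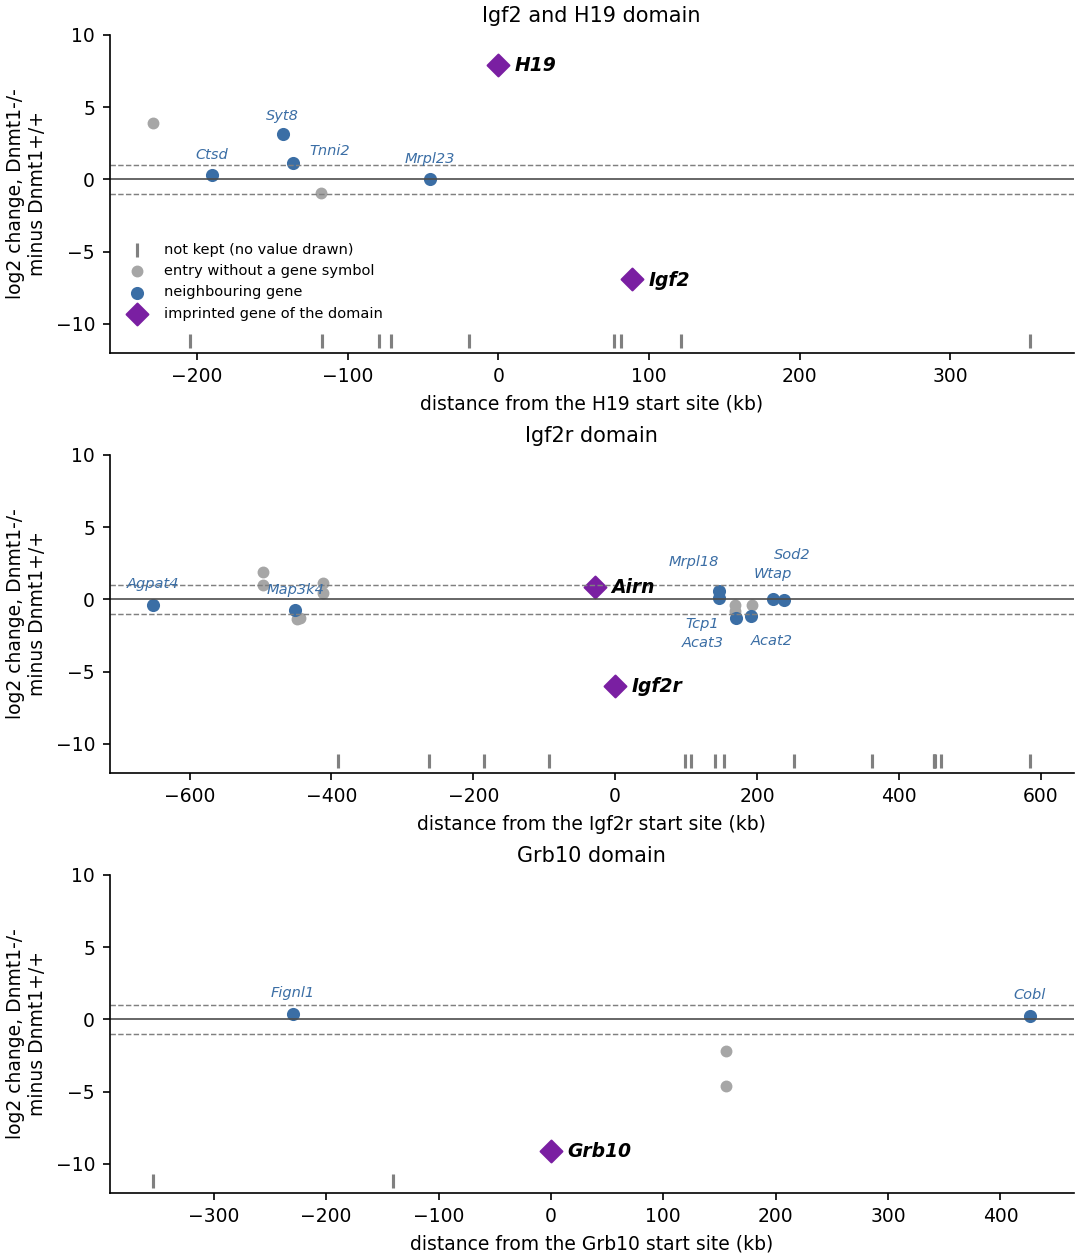
Change of each entry that passed the filter (log2(RPKM + 0.1), Dnmt1-/- minus Dnmt1+/+, y axis) against the distance of its start from the start of H19, Igf2r or Grb10 in kb (x axis), for entries within 250 kb of an imprinted gene body. Entries without an annotated start, among them all those without a symbol, are placed at the middle of their locus. Diamonds are imprinted genes of the domain, blue points neighbours with a symbol, grey points entries without one, ticks entries not kept, and dashed lines mark 2-fold. Igf2, Igf2r and Grb10 lie below their neighbours with a symbol, which range from -1.28 to 3.11, and H19, placed at its value on this scale from an RPKM of 0, lies above them.

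Other imprinted genes with an effect on growth were described by list. Of the 9 growth promoting genes listed, 7 entries of 6 genes passed, as Peg3 had 2. In Dnmt1-/- 0 were past 2-fold higher and 4, from 3 genes, lower (57.1%, against 10.9% of all genes), and the median change was -2.79, with Peg3 counted for each entry, against -0.14 for all genes. Besides Igf2, Dlk1, a membrane ligand related to Delta, was at 7.45 and 0.405 RPKM (log2 change -3.90), and Peg3, a zinc finger protein gene, had entries at 22.5 and 3.17 RPKM (-2.79) and at 7.53 and 0.165 RPKM (-4.85). Another 3 stayed within 2-fold, so the list did not move as 1 group. These were Mest at 14.4 and 14.7 RPKM, Plagl1 at 6.17 and 5.11 RPKM and Peg10 at 23.9 and 35.8 RPKM. Of the 5 growth limiting genes, Igf2r and Grb10 were lower, H19 was higher, and Cdkn1c (0 and 0.101 RPKM) and Phlda2 (0 and 0.251 RPKM) were under the filter. These 3 of 3 stand against 19.4% of all genes past 2-fold, and each passed the filter through the library in which it was high. Genes on both sides of growth control were thus among those far lower in the Dnmt1-/- library.

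Over the signalling lists, ligands and receptors included, the share of entries past 2-fold was close to that of all genes. Of 67 signalling genes, with 69 entries, 64 entries passed the filter, of which 2 were past 2-fold upwards in Dnmt1-/- and 11 downwards (20.3% in all, against 19.4% of all genes). The median change was -0.36. Without the 7 of the 10 genes that are on these lists, 57 entries remained, with 1 higher and 7 lower, 14.0% in all, a median change of -0.32 and a lowest change of -2.26. By direction, all 64 entries had 3.12% higher, against 8.47% of all genes, and 17.2% lower, against 10.9%. Without those 7 genes the shares were 1.75% and 12.3%.

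Among ligands and receptors, 5 of 8 passed. Besides those described, Insr, the insulin receptor, was at 7.67 and 4.35 RPKM (log2 change -0.81), within 2-fold, and Ins1, Ins2 and Insrr were listed at 0 in both libraries. Among receptor substrates and adaptors, 13 of 14 passed, with 0 higher (against 8.47% of all genes) and 4 lower (30.8%, against 10.9%). Besides Irs2, these were Shc2 (2.02 and 0.466 RPKM, log2 change -1.90), Gab1, a docking protein (16.0 and 7.62 RPKM, -1.06), and Sh2b2 (1.84 and 0.870 RPKM, -1.002). Gab1 and Sh2b2 were close to the limit.

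Among inhibitors of receptor signalling, 11 of 12 passed, with 0 higher and 2 lower (18.2%, against 10.9% of all genes lower and 19.4% past 2-fold in either direction). Besides Grb10, the other was Trib3, a pseudokinase that binds Akt and is induced by stress (57.4 and 11.9 RPKM, log2 change -2.26). Grb14, a paralog of Grb10, was at 4.93 and 3.37 RPKM, within 2-fold, and was named after its values were seen. Grb7, another relative, was at 0 and 0.00676 RPKM, under the filter.

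Within phosphoinositide 3-kinase (PI3K), Akt and mTOR signalling, 23 genes gave 24 entries that passed, with 0 higher and 3 lower (12.5%, against 10.9% of all genes). These were Pik3cd, a catalytic subunit best known from leucocytes (4.90 and 1.25 RPKM, log2 change -1.88), Eif4ebp1, a translation repressor phosphorylated by mTOR (158.9 and 71.9 RPKM, -1.14), and Rictor, a subunit of mTOR complex 2 (7.15 and 3.26 RPKM, -1.11). Among Ras and MAP kinase genes, 10 genes gave 11 entries that passed, with 1 higher (9.09%, against 8.47% of all genes) and 0 lower. The one was an entry of Map2k1, the kinase upstream of Erk, at 7.47 and 26.1 RPKM (1.79), while a further entry of the same gene was at 39.9 and 43.2 RPKM. Both Map2k1 entries were higher in Dnmt1-/-, but only 1 was past the limit, so the gene as a whole is uncertain.

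**Figure D4:**
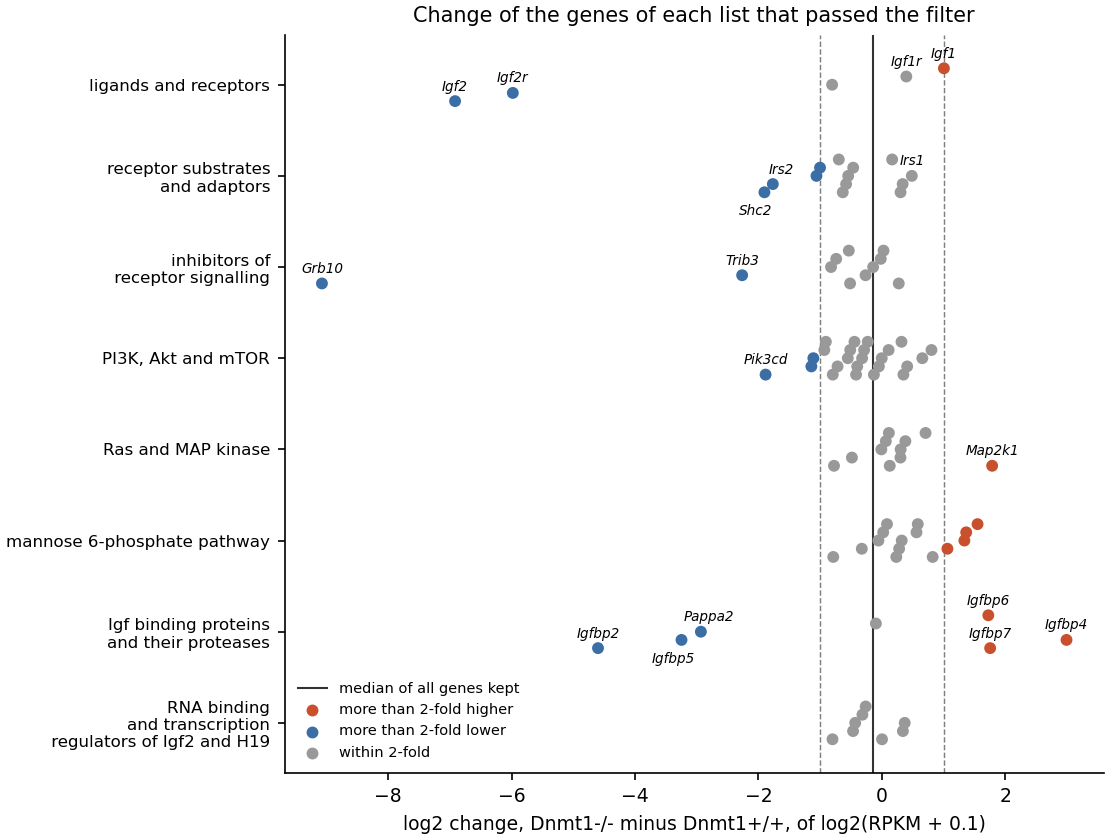
Change of each entry that passed the filter (log2(RPKM + 0.1), Dnmt1-/- minus Dnmt1+/+, x axis) by list (y axis, points spread vertically for legibility). The dashed lines mark 2-fold, the solid line the median of all genes kept (-0.14), and Grb10, Igf2 and Igf2r lie at -9.07, -6.92 and -5.98, far to the left of the other signalling genes.

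Proteins that handle the same ligands and receptors outside the signalling chain were then compared. Of 11 Igf binding proteins and their proteases, 7 passed, of which 3 were higher in Dnmt1-/- (Igfbp4, 96.1 and 766.2 RPKM, Igfbp6, 25.8 and 85.5 RPKM, and Igfbp7, 44.9 and 151.9 RPKM) and 3 lower (Igfbp2, 12.7 and 0.429 RPKM, Igfbp5, 1.09 and 0.0251 RPKM, and the protease Pappa2, 1.95 and 0.168 RPKM). The share past 2-fold was 85.7%, against 19.4% of all genes (8.47% higher and 10.9% lower). Binding proteins differed in both directions, and the protease Htra1 was within 2-fold.

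Igf2r also serves as the larger of the mannose 6-phosphate receptors. Of 16 genes of that pathway 15 passed, with 4 higher in Dnmt1-/-, 0 lower and a median change of 0.32. M6pr, the smaller receptor with the same task, was at 23.6 and 49.5 RPKM (log2 change 1.06). Nagpa, the enzyme that uncovers the mannose 6-phosphate tag, was at 4.65 and 12.2 RPKM (1.37), the protease Ctsb at 66.8 and 195.9 RPKM (1.55) and Hexa, a subunit of beta-hexosaminidase, at 36.4 and 92.2 RPKM (1.34). The share past 2-fold was 26.7%, against 19.4% of all genes in either direction and 8.47% upwards, and M6pr was just past the limit, in the direction opposite to Igf2r.

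Of 10 RNA binding proteins and transcription regulators known to act on Igf2 or H19, 8 passed, and 0 were past 2-fold in either direction, against 19.4% of all genes, with a median change of -0.29. Ctcf, the insulator protein of the H19 control region, was at 32.8 and 41.6 RPKM. Zfp57, which keeps imprints methylated, was at 18.95 and 10.8 RPKM, and its partner Trim28 at 93.6 and 75.2 RPKM. The Igf2 mRNA binding proteins Igf2bp1, Igf2bp2 and Igf2bp3 were at 13.1 and 17.0, 62.7 and 52.3, and 25.5 and 18.9 RPKM. Lin28a was listed at 0 in both libraries and Lin28b was at 0.0442 and 0 RPKM, under the filter. These genes were named after their values were seen.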

How the data were processed

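Mouse embryonic fibroblast RNA was sequenced in 1 strand-specific mRNA library per genotype, and samples were grouped by the genotype in their labels. Per the study's methods and processing notes, the authors aligned reads with TopHat to the mm9 genome, built transcripts with Cufflinks and ran Cuffdiff. The deposited RPKM values are its output, 1 column per library, with a status for each entry. Versions, and any scaling beyond mapped reads, are not given in the sources used here. Because RPKM is relative to all mapped reads, a change in a few abundant RNAs shifts the others, and low RPKM rests on few reads. The deposited table held 29126 entries, 23075 of them with status OK. The columns are named for wild-type and knock-out, which the study defines as Dnmt1+/+ and Dnmt1-/-.

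Calculations used numpy 2.4.6 and pandas 2.3.3 under Python 3.11.15, and figures matplotlib 3.10.9. Entries with status OK, a symbol and at least 1 RPKM in either library were kept (11244). The change was log2(RPKM + 0.1) in Dnmt1-/- minus Dnmt1+/+, and a 2-fold limit was set without a test. The calculation was tested on simulated data. Alternatives were pseudocounts of 1, 0.01 and none, other filters, median subtraction, a 1.5-fold limit and a 100 kb distance. The members and lists were chosen with earlier results of these data known. Named were all 10 members, genes of the lists past 2-fold, all ligands and receptors, neighbours with a symbol that passed, and the 2 genes nearest to H19, Igf2, Igf2r and Grb10 in level over both libraries. Defining markers at 0, imprinted genes kept within 2-fold, regulators, other list genes under the limit and neighbours under the filter were added after their values were seen. Promoter and microRNA sequences came from RefSeq tables of build GRCm38.p6, matched exactly to mm9. Promoters of 9 of the 10 genes were found (13 in all). Single genes of the lists that are not named are not reported here.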

Additional observations from a re-analysis of the deposited data

How the results depend on the processing

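No result reversed under the alternatives run. A single gene's log2 change could move only with the pseudocount and the median subtraction, and under these Igf1 alone crossed the 2-fold limit. The 4 members lower in Dnmt1-/- were 4 under every alternative run. The count of members higher, 2, became 1 with a pseudocount of 1, 1 with a mean of at least 1 RPKM, and 1 without Igf1, a choice made after seeing the data. Each of these takes Igf1 out of the count by its construction, as its log2 change was 0.48 with a pseudocount of 1 and its mean was under 1 RPKM. Airn (0.84) passed a 1.5-fold limit. Signalling genes higher, 2, became 1 with a pseudocount of 1, 1 with a mean of at least 1 RPKM and 5 with a 1.5-fold limit. Those lower, 11, became 8 with a pseudocount of 1, 8 with the median change subtracted and 21 with the 1.5-fold limit. Of all genes, 14.1% were higher and 23.7% lower by the 1.5-fold limit. Neighbours higher, 6, became 1 within 100 kb and those lower, 6, became 4, where fewer entries were counted. Of all entries with or without a symbol that passed, 13% were higher and 17.5% lower. The neighbour counts within 100 kb are given without a share, so they are not set against these. No paired analysis was possible because each genotype has 1 library, and for the same reason no library could be left out. Read counts per gene were not used here, so an RPKM near 0 has no interval.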

Other observations

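For the 4 imprinted genes with the widest gaps, the genes nearest in level over both libraries were listed, by Euclidean distance on log2(RPKM + 0.1) over 2 libraries, which says nothing of shared function. Nearest to H19 were Hoxa10, a homeobox gene of the posterior body axis (0.00996 RPKM in Dnmt1+/+ and 23.2 in Dnmt1-/-, distance 0.156), and Herc3, a ubiquitin ligase (0 and 27.7 RPKM, 0.181). Nearest to Igf2 were Arhgap36 (14.7 and 0.0903 RPKM, 0.447) and Scara3 (15.6 and 0.101 RPKM, 0.452). Nearest to Igf2r were Gng11, a G protein gamma subunit (18.3 and 0.601 RPKM, 0.981), and Hoxb9 (18.3 and 0.282 RPKM, 1.05). Nearest to Grb10 were Gnai1, an inhibitory G protein subunit (62.1 and 0.0317 RPKM, 0.901), and Efemp1, an extracellular matrix protein gene (154.7 and 0.00975 RPKM, 0.992). Matches for H19 and Igf2 were closer than those for Igf2r and Grb10, whose pairs of levels had no gene as near.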
